A study of Saccharomyces cerevisiae with 15 samples.

Results

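Plasma membrane permease genes of the budding yeast Saccharomyces cerevisiae are described here, 8 of the 6600 gene identifiers in the deposited table. They were chosen by their roles in nitrogen uptake and selected on their normalized counts in the 5 groups, and found by gene identifier: the peptide transporter genes OPT1 (YJL212C), OPT2 (YPR194C) and PTR2 (YKR093W), the amino acid permease genes GAP1 (YKR039W) and AGP1 (YCL025C), and the ammonium permease genes MEP1 (YGR121C), MEP2 (YNL142W) and MEP3 (YPR138C). Their levels and the differences between groups are therefore a description, with no test. All 8 passed the filter used for testing, a mean over the libraries of 10 normalized counts or more.

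The data were 15 RNA-seq libraries of strain BY4741, a haploid laboratory strain of mating type a that lacks URA3, LEU2, MET17 and part of HIS3 in every group. Cells grew in yeast nitrogen base with β-glycerophosphate. They then spent 1 h untreated (control), with the light rare earth element lanthanum (La) at 50 µM (EC10) or 160 µM (EC50), or with the heavy rare earth element ytterbium (Yb) at 6 µM (EC10) or 8 µM (EC50), with 3 libraries in each of the 5 groups. EC10 and EC50 are the labels' names of the lower and the higher effective concentration of each metal. Whether the libraries in a group came from separate cultures is not stated in the labels, so SDs and p-values measure the spread between these libraries, which may be technical.

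Recovered totals were 5629666 to 7183175 reads per library, and 1 read was worth 0.901 to 1.22 normalized counts, the unit of every level below. Each library is named by its group and a running number, 1 to 3 for control, 4 to 6 for Yb EC50, 7 to 9 for Yb EC10, 10 to 12 for La EC50 and 13 to 15 for La EC10. URA3 and MET17 had 0 reads in all 15 libraries, LEU2 had 1 read over all of them, and the a-type receptor gene STE2 was at 3239 to 6130 normalized counts beside 47.4 to 79.6 for the α-type receptor gene STE3. Normalized counts are scaled by a size factor for each library and are relative values, so less RNA per cell and fewer cells cannot be told apart in them.

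Yeast takes up nitrogen through permeases of different breadth, and it makes more of the broad ones when preferred nitrogen sources run short. The GATA factors Gln3 and Gat1 activate many of these genes, a regime called nitrogen catabolite repression when good sources switch it off, and the amino acid sensor Ssy1-Ptr3-Ssy5 activates others through the factors Stp1 and Stp2. At the membrane the permeases are tagged by the ubiquitin ligase Rsp5 with arrestin-like adaptors and sorted to the vacuole, so transcript and transport need not move together.

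Each of the 8 genes has 1 coding exon, and no other annotated gene overlaps one of them in the RefSeq annotation of build R64. OPT1 lies on chromosome X, 33850 to 36249, on the minus strand, OPT2 lies on chromosome XVI, 924304 to 926937, on the minus strand, PTR2 lies on chromosome XI, 615730 to 617535, on the plus strand. GAP1 lies on chromosome XI, 515063 to 516871, on the plus strand, AGP1 lies on chromosome III, 76018 to 77919, on the minus strand. MEP1 lies on chromosome VII, 731449 to 732927, on the minus strand, MEP2 lies on chromosome XIV, 357453 to 358952, on the plus strand, MEP3 lies on chromosome XVI, 810984 to 812453, on the minus strand. The 5 windows printed here show the sequence just upstream of OPT2, GAP1, AGP1 and MEP1, whose group means differed at least 2-fold, and of MEP3. MEP3 was added because its window held 2 matches of GATAAG. Each window runs from 300 to 51 bases before the start codon, 250 bases, 5′ to 3′ on the gene's strand. Capitals mark GATAAG, the core bound by GATA factors, or its reverse complement CTTATC, and in AGP1 also CCCCT, the reverse complement of the stress element AGGGG.
GAP1, chrXI:514763-515012, plus strand: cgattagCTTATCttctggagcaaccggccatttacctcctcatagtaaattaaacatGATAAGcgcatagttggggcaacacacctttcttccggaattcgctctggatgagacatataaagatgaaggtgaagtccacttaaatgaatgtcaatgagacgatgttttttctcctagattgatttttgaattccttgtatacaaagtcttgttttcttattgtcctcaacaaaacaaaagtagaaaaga
AGP1, chrIII:77970-78219, minus strand: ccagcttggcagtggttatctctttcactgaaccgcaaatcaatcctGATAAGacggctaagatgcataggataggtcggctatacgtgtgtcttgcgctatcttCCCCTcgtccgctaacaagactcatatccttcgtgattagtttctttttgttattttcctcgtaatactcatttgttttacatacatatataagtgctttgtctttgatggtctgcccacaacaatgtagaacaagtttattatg
MEP3, chrXVI:812504-812753, minus strand: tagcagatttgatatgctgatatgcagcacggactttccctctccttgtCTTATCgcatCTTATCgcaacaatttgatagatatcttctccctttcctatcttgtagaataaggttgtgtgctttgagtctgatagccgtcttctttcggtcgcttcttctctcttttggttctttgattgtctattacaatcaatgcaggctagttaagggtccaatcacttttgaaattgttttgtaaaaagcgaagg
MEP1, chrVII:732978-733227, minus strand: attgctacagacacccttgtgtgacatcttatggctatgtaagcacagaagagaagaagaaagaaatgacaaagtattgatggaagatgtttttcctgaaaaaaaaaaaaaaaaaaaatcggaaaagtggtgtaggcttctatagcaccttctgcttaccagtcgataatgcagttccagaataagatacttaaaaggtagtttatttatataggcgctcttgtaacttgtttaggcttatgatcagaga
OPT2, chrXVI:926988-927237, minus strand: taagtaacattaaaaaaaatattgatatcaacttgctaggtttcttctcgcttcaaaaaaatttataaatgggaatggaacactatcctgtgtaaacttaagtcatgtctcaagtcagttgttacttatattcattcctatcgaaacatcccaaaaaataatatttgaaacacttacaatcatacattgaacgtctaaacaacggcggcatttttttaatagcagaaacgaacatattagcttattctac

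GAP1 held GATAAG in both orientations, at 293 to 288 and at 242 to 237 bases before its start codon. MEP3 held 2 CTTATC matches, at 251 to 246 and at 241 to 236 bases. AGP1 had 1 match at 253 to 248 bases, OPT1 had 1 at 171 to 166 and MEP2 had 1 at 233 to 228, and the last of these windows also overlaps the annotated coding gene YNL143C. OPT2, PTR2 and MEP1 had no match in the window. Of 6001 windows of the same length upstream of annotated genes, 11.96% held the motif on either strand and 1.13% held it at least 2 times, against 5 and 2 of the 8 permease genes. AGGGG on either strand was found once among the 8, in AGP1, against 19.2% of all windows. TGACTC, the core of the Gcn4 site, was in none of the 8 and in 6.83% of all windows. In AGP1 the AGGGG match lay at 195 to 191 bases and did not overlap the GATAAG match. These matches describe the letters only.

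The 8 genes did not share a direction. OPT2, PTR2, GAP1 and AGP1 lay above their control range in all 12 exposed libraries, and OPT1 lay below it in all 12. For PTR2 at Yb EC10 the gap was only that between 119.2 and 120.0 normalized counts. MEP1 was lower than control with La and higher with Yb. MEP2 overlapped control in every group, and MEP3 left its control range in 1 group, La EC50. In terms of whole groups, the ranges of the 3 exposed and the 3 control libraries were apart for 6 of 8 members at La EC10 (34.5% of all genes tested), 7 of 8 at La EC50 (42.7%), 6 of 8 at Yb EC10 (40.9%) and 6 of 8 at Yb EC50 (52.1%). The rule used these contrasts, and nothing is read from the counts.

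**Figure D1:**
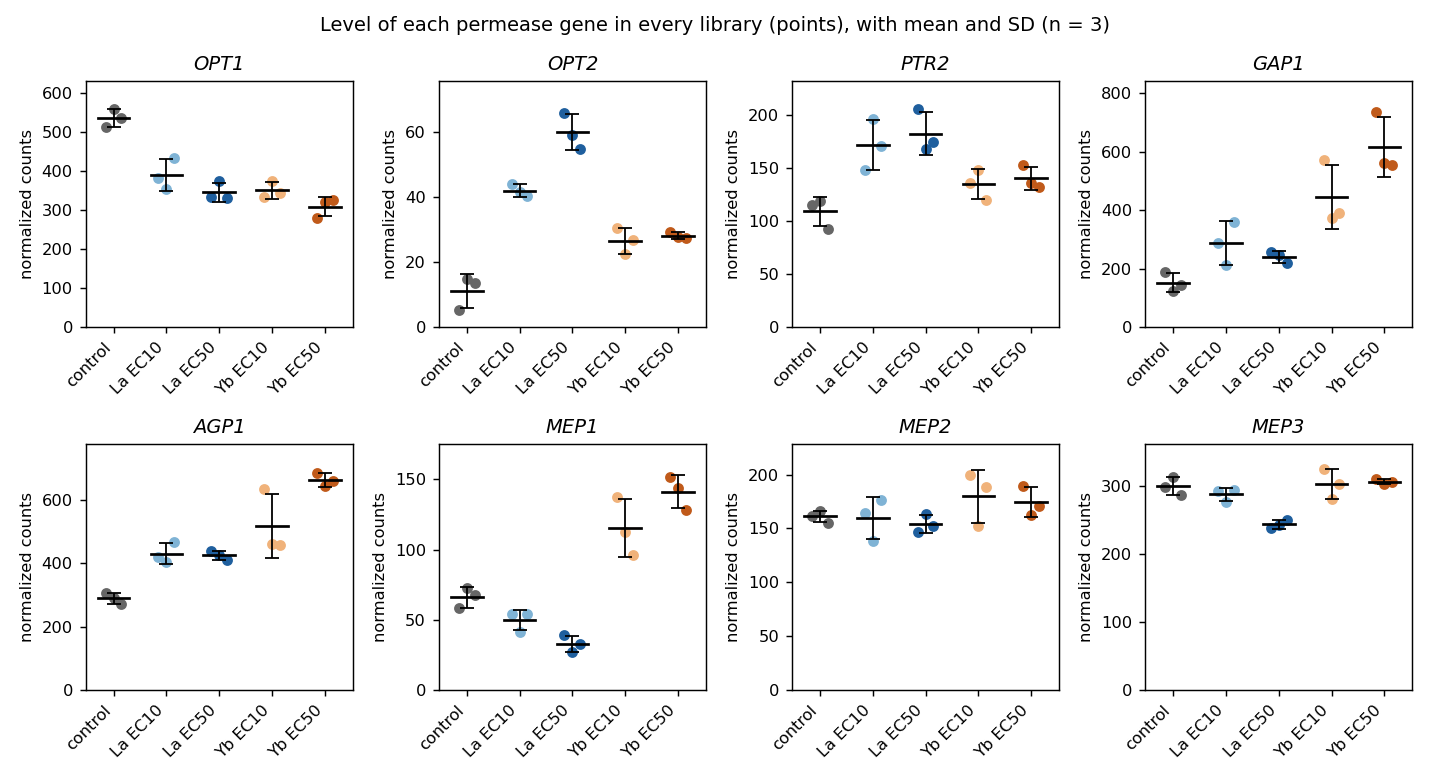
Level of each permease gene (normalized counts, each axis from 0) in the 15 libraries, with the group mean as a line and the SD as a bar (n = 3 per group). OPT2 is highest with La, GAP1 and AGP1 are highest with Yb, MEP1 is below control with La and above it with Yb, and MEP2 overlaps control throughout.

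**Figure D2:**
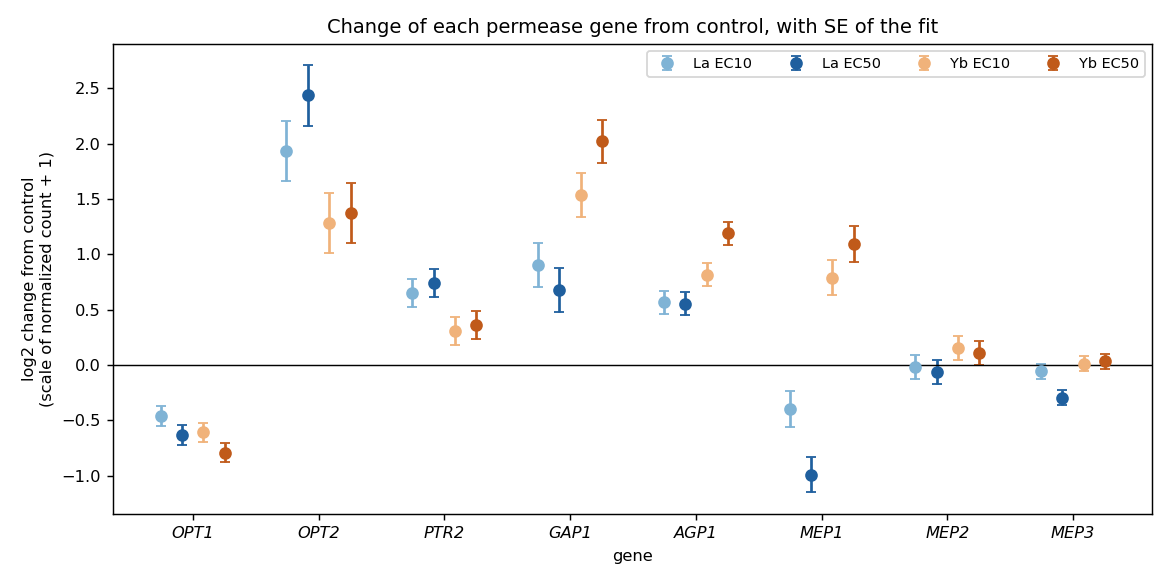
Change of each gene from control for the 4 exposures, on the scale of log2(normalized count + 1), with the SE of a single fit to all 15 libraries. MEP1 has points on both sides of 0, at -0.40 and -0.99 with La and at 0.79 and 1.09 with Yb.

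Among the peptide transporters, OPT1 was lower and OPT2 and PTR2 were higher in exposed cells. OPT1, the high-affinity transporter of glutathione and oligopeptides, had 511, 559 and 535 normalized counts in control libraries 1 to 3. It had 381, 354 and 433 in La EC10 libraries 13 to 15 and 332, 373 and 329.7 in La EC50 libraries 10 to 12. With Yb it had 333, 375 and 344 at EC10 (libraries 7 to 9) and 281, 319.5 and 327 at EC50 (libraries 4 to 6). The highest exposed library was thus La EC10 library 15, still below the lowest control library. The control mean was 1.37-fold that of La EC10, 1.55-fold that of La EC50, 1.53-fold that of Yb EC10 and 1.73-fold that of Yb EC50. The log2 changes were -0.46, -0.63, -0.61 and -0.79 in that order (SE 0.09 each). The ranges of La EC50 and Yb EC10 overlapped, as did those of Yb EC10 and La EC10, while Yb EC50 lay below La EC50.

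OPT2 encodes another member of the same family and was the scarcest of the 8 in control cells. It had 5.19, 14.9 and 13.5 normalized counts in the control libraries, from 5, 14 and 11 reads. It had 44.1, 41.6 and 40.4 at La EC10 and 65.8, 59.3 and 54.9 at La EC50. It had 30.5, 22.5 and 26.8 at Yb EC10 and 29.4, 27.8 and 27.3 at Yb EC50. Both La groups lay above both Yb groups with no overlap, La EC50 lay above La EC10, and the Yb doses overlapped. The fold over the control mean was 3.76 at La EC10, 5.36 at La EC50, 2.38 at Yb EC10 and 2.52 at Yb EC50, with log2 changes of 1.93, 2.44, 1.29 and 1.37 (SE 0.27 each). Control library 1 had the lowest value, and without it the log2 change at Yb EC10 was 0.85. The control mean of 11.2 carried an SD of 5.25, beside SDs of 1.08 to 5.47 on the exposed means of 26.6 to 60.0 (n = 3).

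PTR2, the proton-coupled transporter of dipeptides and tripeptides, was higher in every exposed group by a smaller factor. The control libraries had 115, 119 and 93.1 normalized counts, La EC10 had 148, 196 and 171 and La EC50 had 205, 168 and 175. Yb EC10 had 136, 148 and 120.0 and Yb EC50 had 153, 136 and 132. The lowest exposed library, Yb EC10 library 9, lay just above the highest control library, library 2. Both had 112 reads, so only the size factors set them apart. In the order control, Yb EC10, Yb EC50, La EC10, La EC50 only the step from control to Yb EC10 had no overlap. The folds over control were 1.57 and 1.67 with La and 1.24 and 1.29 with Yb, and the log2 changes were 0.65 and 0.74 with La and 0.31 and 0.36 with Yb (SE 0.13 each). Quantile normalization of the libraries brought the Yb values down to 0.11 and 0.15.

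Within each library and per kb of coding length, OPT1 exceeded OPT2 41.2-fold to 108-fold in control, 9.34-fold to 11.8-fold at La EC10 and 5.54-fold to 6.91-fold at La EC50. With Yb the ratio was 11.97 to 18.2 at the lower dose and 10.5 to 13.1 at the higher dose. Scaling of whole libraries does not enter this ratio, and every exposed library lay below every control library. OPT1 over PTR2 was lower in the same sense, from a mean of 3.73 ± 0.523 in control to 1.73 ± 0.324 and 1.44 ± 0.229 at La EC10 and EC50 and to 1.97 ± 0.169 and 1.67 ± 0.253 at Yb EC10 and EC50 (SD, n = 3).

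Both amino acid permease genes were higher in every exposed group, and further above control with Yb than with La at EC50. GAP1, the general amino acid permease, which nitrogen catabolite repression controls, had 189, 123 and 145 normalized counts in control libraries 1 to 3. It had 289, 213 and 361 at La EC10, 257, 247 and 219 at La EC50, 572, 373 and 390.0 at Yb EC10 and 734, 561 and 553 at Yb EC50. Library 7 at Yb EC10 and library 4 at Yb EC50 stood above the other libraries of their groups. The means were 152 ± 33.3 in control, 288 ± 74.2 and 241 ± 19.9 with La and 445 ± 110.2 and 616 ± 102 with Yb (SD, n = 3, EC10 then EC50), 1.89-fold, 1.58-fold, 2.92-fold and 4.05-fold for the exposed groups over control. The log2 changes were 0.90, 0.68, 1.54 and 2.02 (SE 0.20 each). The ranges of the La doses overlapped, as did those of the Yb doses, and each Yb group lay above each La group.

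AGP1, a low-affinity permease of broad range that the Ssy1-Ptr3-Ssy5 sensor controls, had 306, 291 and 272 normalized counts in control. It had 420.4, 402 and 466 at La EC10 and 439, 426 and 409 at La EC50. It had 633, 459 and 456 at Yb EC10 and 685, 643 and 658 at Yb EC50. The La doses overlapped each other, Yb EC10 overlapped La EC10, and the Yb EC50 libraries were above all others. The folds over control were 1.48 and 1.47 with La and 1.78 and 2.29 with Yb (EC10 then EC50), with log2 changes of 0.57, 0.55, 0.82 and 1.19 (SE 0.10 each). Yb EC10 library 7, which was also the highest of its group for GAP1, MEP1, MEP2 and MEP3, was again the highest.

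Of the sum of GAP1 and AGP1 per kb, GAP1 made up 30.9% to 39.3% in untreated libraries, 35.7% to 44.9% at La EC10 and 36.0% to 38.1% at La EC50. With Yb it made up 46.1% to 48.7% at the lower dose and 46.9% to 53.0% at the higher dose. The Yb libraries were apart from the others in this share, and the La libraries overlapped control.

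The 3 ammonium permease genes behaved differently from one another. MEP1, a transporter of ammonium that is closest in coding sequence to MEP3, was the only one of the 8 genes that was apart from control in opposite directions for the metals. The control libraries had 58.1, 72.4 and 67.4 normalized counts. La EC10 libraries had 54.2, 41.6 and 54.2 and La EC50 libraries 38.9, 27.4 and 32.4. Yb EC10 libraries had 137, 113 and 96.4 and Yb EC50 libraries 152, 144 and 128. In the order La EC50, La EC10, control, Yb EC10 and Yb EC50, each step was free of overlap except that between the Yb doses. The folds over control were 0.758 and 0.499 with La and 1.75 and 2.14 with Yb, and the means of Yb EC50 and La EC50 were 4.30-fold apart. The log2 changes were -0.40, -0.99, 0.79 and 1.09 (SE 0.16 each), and the difference of La EC50 from Yb EC50 was -2.08. With quantile normalization the log2 change at Yb EC10 was 0.53.

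MEP2, the high-affinity ammonium transporter that also acts as a sensor for filamentous growth, had 162, 166 and 156 normalized counts in control. It had 165, 139 and 176 at La EC10, 147, 163 and 152 at La EC50, 199, 152 and 189 at Yb EC10 and 189.5, 162 and 171 at Yb EC50. Every exposed group overlapped control, and the log2 changes of -0.02, -0.07, 0.15 and 0.11 (SE 0.11 each) changed sign for 3 of the exposures with the scaling of the libraries or the library left out, and stayed between 0.02 and 0.27 at Yb EC10.

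MEP3, the ammonium transporter of lower affinity and higher capacity, was the most abundant of the 3. It had 299, 313 and 287 normalized counts in control, 293, 277 and 293 at La EC10 and 238, 242 and 250.4 at La EC50. It had 324, 280.1 and 303 at Yb EC10 and 309.9, 303 and 306 at Yb EC50. La EC50 was apart from every other group, with a log2 change from control of -0.30 ± 0.07 (SE), which was -0.20 when all libraries were set to an equal total. The other groups overlapped control, with a log2 change of -0.06 at La EC10 and of 0.01 and 0.03 for the Yb doses, whose sign depended on the scaling or on the library left out.

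Per kb of coding length, MEP1 made up 11.2% to 13.2% of the 3 ammonium permease transcripts in control, 9.11% to 10.6% at La EC10 and 6.34% to 9.19% at La EC50. With Yb it made up 16.4% to 20.8% at the lower dose and 21.2% to 23.6% at the higher dose. All groups were apart from each other in this share except the La doses, which overlapped at their edges. MEP3 gave 57.3% ± 0.687 of the sum in control and 49.6% ± 1.52 at Yb EC50, and MEP2 gave 30.2% ± 0.541 in control and 35.3% ± 1.72 at La EC50 (SD, n = 3). The sum itself was 356 ± 14.9 normalized counts per kb in control, 336 ± 23.9 and 291 ± 3.94 with La and 404 ± 39.4 and 420.0 ± 17.1 with Yb (SD, n = 3). At La EC50 all 3 libraries were below the control range of 344 to 373, and at Yb EC50 all 3 were above it.

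**Figure D3:**
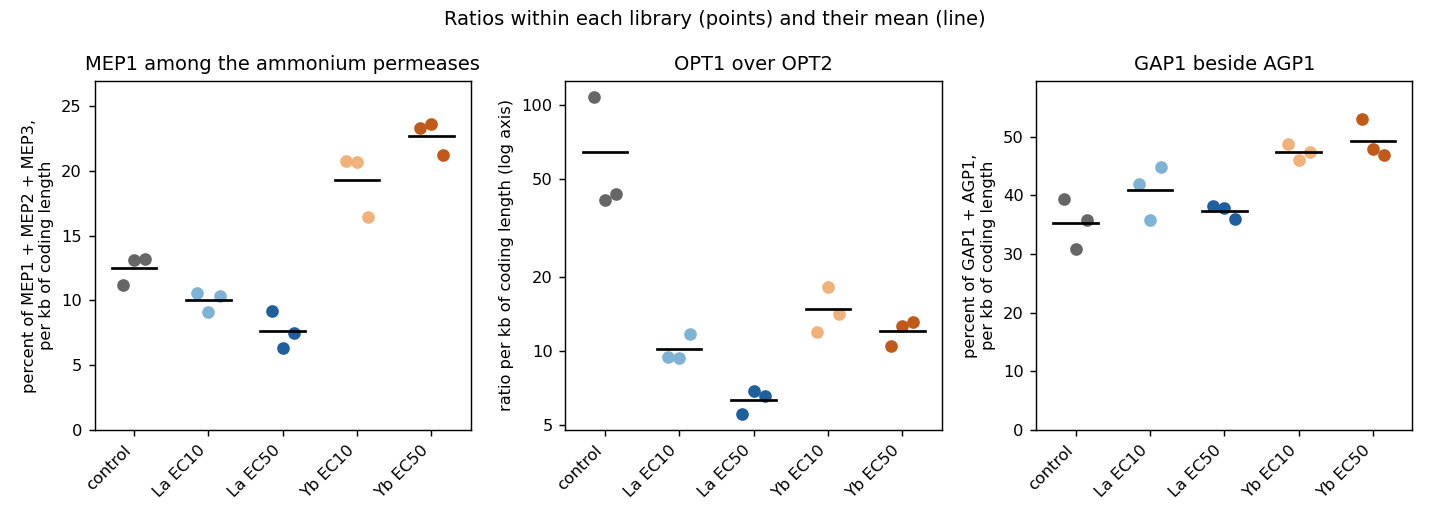
Ratios within each library, points for libraries and lines for group means: MEP1 as a percent of the 3 ammonium permease genes, OPT1 over OPT2 (log axis) and GAP1 as a percent of GAP1 plus AGP1, all per kb of coding length. MEP1 goes from 6.34% to 9.19% at La EC50 to 21.2% to 23.6% at Yb EC50, and OPT1 over OPT2 is above 41 only in control.

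The coding sequences of MEP1 and MEP3 were identical at 71.5% of aligned bases, with a longest shared run of 20 bases. The other pairs were less alike, at 58.0% for MEP1 and MEP2, 59.6% for MEP2 and MEP3, 60.5% for OPT1 and OPT2 and 61.2% for GAP1 and AGP1, with shared runs of at most 14 bases. Identity over stretches of the length of a read was not measured, and the genes were treated as separately counted.

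Per kb of coding length, the order in control was OPT1 (223 normalized counts per kb), MEP3 (204), AGP1 (152), MEP2 (107), GAP1 (84.2), PTR2 (60.4), MEP1 (44.6) and OPT2 (4.25). At Yb EC50 AGP1 (348) and GAP1 (341) came first, with SDs of 11.3 and 56.6 that leave their order unresolved, and MEP3 (208) and OPT1 (129) followed. At La EC50 AGP1 (223) came first, before MEP3 (166), OPT1 (144) and GAP1 (133).

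Fewer members were apart between the doses of a metal than between an exposure and control. The same held for all genes tested, 21% and 22.8% between doses and 34.5% to 52.1% from control. Nothing is read from these counts. From La EC10 to La EC50 the libraries were apart for OPT2, which was higher at EC50, and for MEP1 and MEP3, which were lower, 3 of 8 members (21% of all genes tested). From Yb EC10 to Yb EC50 they were apart for AGP1, higher at EC50, and OPT1, lower, 2 of 8 (22.8%). Between the metals at EC10 they were apart for OPT2 and PTR2, higher with La, and GAP1 and MEP1, higher with Yb, 4 of 8 (20.7%). At EC50 they were apart for every member but MEP2, 7 of 8 (41.8%): OPT1, OPT2 and PTR2 were higher with La by 0.16, 1.06 and 0.38 on the log2 scale, and GAP1, AGP1, MEP1 and MEP3 were higher with Yb, with La minus Yb at -1.34, -0.64, -2.08 and -0.33.

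For the 4 members whose highest and lowest group means differed at least 2-fold, the genes most alike over the 5 group means were sought among 5216 or 5217 genes at a mean of 50 normalized counts or more, by the root mean square difference of their centred log2 values. OPT2 was nearest to the cell wall mannoprotein gene CWP1 (0.124), the hexose transporter gene HXT4 (0.189) and YCL049C (0.262). GAP1 was nearest to the glucokinase gene GLK1 (0.0865), the gluconeogenic activator gene CAT8 (0.110) and the phosphoglucomutase gene PGM2 (0.114). AGP1 was nearest to the autophagy gene ATG29 (0.0391), the mitochondrial peroxiredoxin gene PRX1 (0.0397) and the vacuolar protease gene PEP4 (0.0498). MEP1 had no equally close neighbour: HOR7 (0.256), the lactate dehydrogenase gene CYB2 (0.280) and CSR2 (0.297) came first. The means of HOR7 and CSR2 lay below control with La and above it with Yb, as those of MEP1 did. HOR7 had 819 normalized counts in control, 682 and 662 with La and 2040 and 2422 with Yb (EC10 then EC50). CSR2 had 88.3 in control, 80.7 and 80.4 with La and 167 and 234 with Yb. CYB2 had 57.9 in control and 71.4 at La EC10, where MEP1 was below control. It had 47.7 at La EC50, 118 at Yb EC10 and 155 at Yb EC50. With 5 points per gene these distances are descriptions.

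The other genes of the system were tested in the same limma fit, adjusted by Benjamini-Hochberg over 5567 genes and called at an adjusted p under 0.05; limma's adjusted p is meant below. They formed 8 lists with 93 genes, none of them among the 8 permeases, and 90 were tested (DAL80, DAL1 and VBA3 were too low). Of the 90, 9 rose and 3 fell at La EC10, where 20.3% of all genes were called, 10.2% higher and 10.1% lower. At La EC50 12 rose and 4 fell (25.6% of all genes, 12.6% higher and 13% lower). At Yb EC10 18 rose and 6 fell (29.3%, 15.2% higher and 14% lower). At Yb EC50 25 rose and 13 fell (40.8%, 20.6% higher and 20.2% lower). The share of list genes called in this fit was 13.3%, 17.8%, 26.7% and 42.2%. It was below that of all genes in the first 3 comparisons and near it at Yb EC50. Rises of list genes outnumbered falls in each. With all libraries set to an equal total the list splits were 12 and 2, 26 and 2, 21 and 3, and 43 and 5. Over all genes they were 767 higher and 311 lower, 1195 and 416, 1062 and 454, and 1755 and 472. Rises thus outnumbered falls over all genes too. The equal totals put the median log2 change over all genes at 0.11 for La EC50 and for Yb EC50, where it had been 0.01 and -0.02. At La EC10 the count of 12 became 7 without control library 2, control library 3 or La EC10 library 13, 6 without library 15 and 21 without library 14. Calls over all genes went from 1131 to 639, 707, 618, 577 and 1511 in that order. At La EC50 16 became 10 without library 10, and at Yb EC10 24 became 15 without library 9. Calls over all genes there went from 1425 to 1045 and from 1629 to 989.

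**Figure D4:**
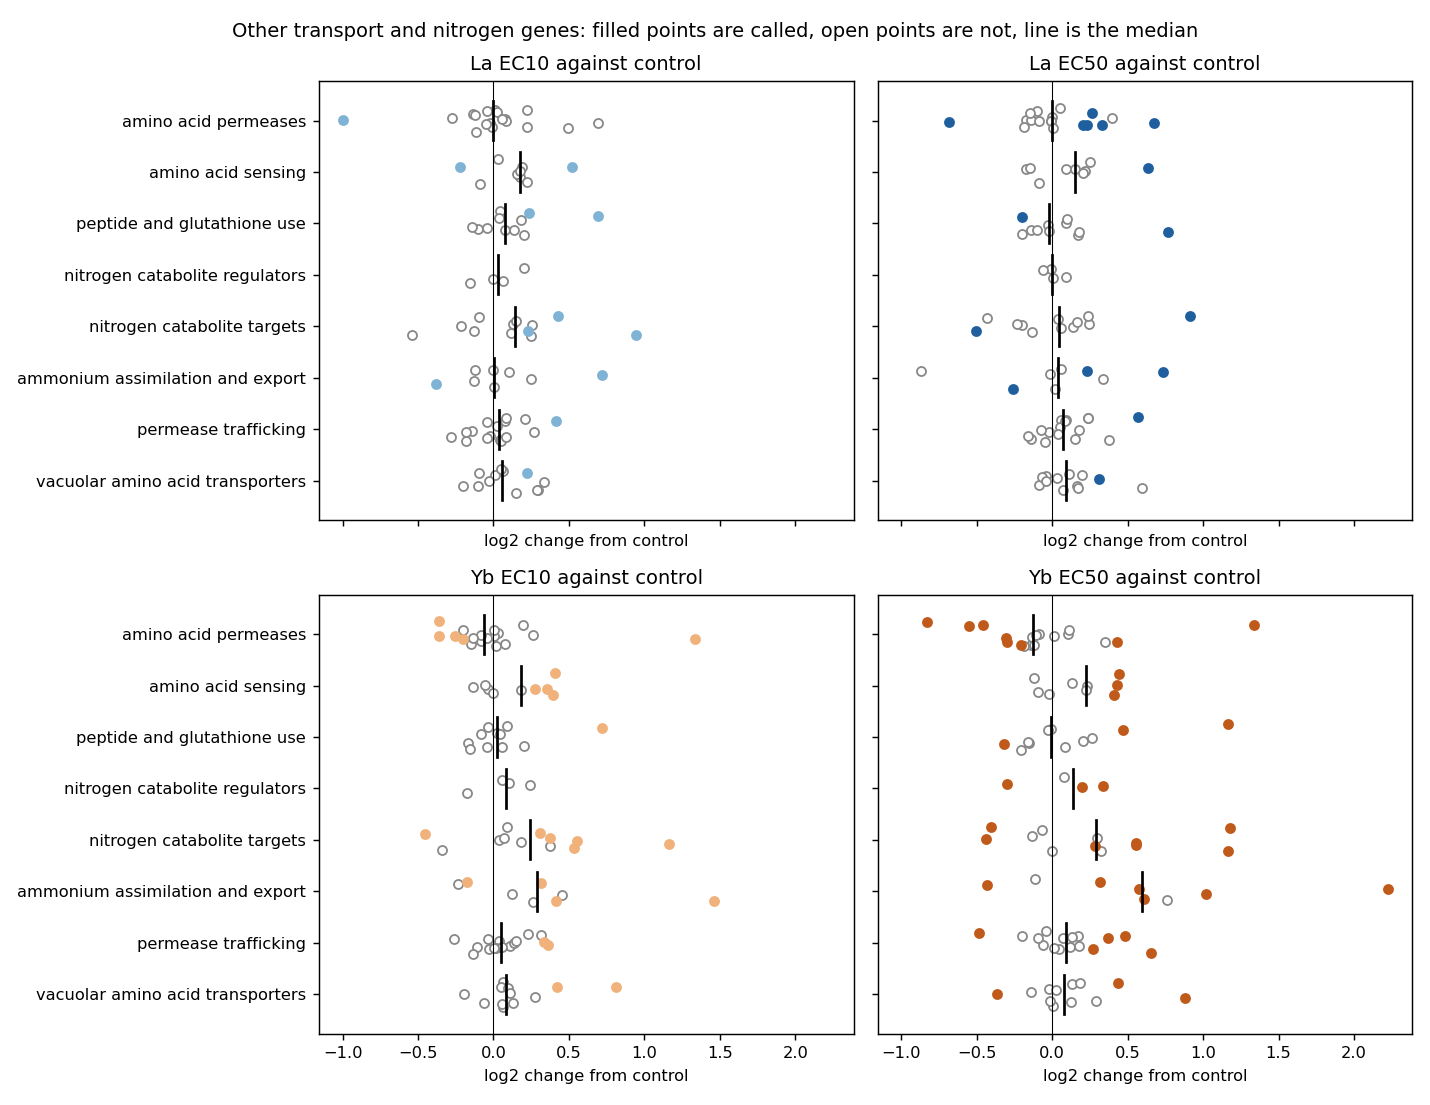
Log2 change from control of the 90 tested genes of the 8 lists, 1 panel per exposure, with filled points for genes called by limma, open points for the others and a black line at the list median. The ammonium assimilation and export list has its median at 0.59 at Yb EC50 and at 0.04 at La EC50.

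Among 18 other plasma membrane amino acid permeases, 1 fell and 0 rose at La EC10, 5 rose and 1 fell at La EC50, 1 rose and 4 fell at Yb EC10, and 2 rose and 6 fell at Yb EC50. The list medians were 0.00, 0.00, -0.06 and -0.13, beside medians of all genes of 0.01, 0.01, 0.00 and -0.02. DIP5, the permease of glutamate and aspartate, fell with each exposure, from 1731 ± 160 normalized counts in control to 865 ± 26.4 and 1073 ± 46.3 with La and 1345 ± 68.2 and 1178 ± 4.52 with Yb (SD, n = 3, EC10 then EC50). Its adjusted p from limma was 4.50e-08, 2.12e-06, 0.00123 and 1.36e-05, and it was called under all 13 alternatives of each comparison. PUT4, the proline permease, rose from 16.7 ± 3.13 to 45.4 ± 16.0 and 43.5 ± 5.89 with Yb (limma adjusted p = 0.00137 and 0.000839). At Yb EC50 the S-methylmethionine permease gene MMP1 fell from 359 ± 22.6 to 201 ± 7.51 and the S-adenosylmethionine permease gene SAM3 from 1937 ± 16.7 to 1413 ± 128 (limma adjusted p = 5.31e-05 and 0.00118). The broad permease gene TAT1 fell by 0.26 on the log2 scale at Yb EC10 (limma adjusted p = 0.00553) and was also called lower at Yb EC50. At La EC50 GNP1, the high-affinity glutamine permease, rose from 2695 ± 184 to 3239 ± 122 (limma adjusted p = 0.00591). The arginine permease gene ALP1 and AGP2 were also called there (limma adjusted p = 0.0361 and 0.0484) and lost under 6 and 9 of 13 alternatives. AGP2 was called higher at Yb EC50 as well.

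Of 9 genes of amino acid sensing, 1 rose and 1 fell at La EC10, 1 rose at La EC50, 4 rose at Yb EC10 and 3 rose at Yb EC50, with list medians of 0.17, 0.15, 0.18 and 0.22. STP2, the factor that the sensor releases to activate permease genes such as AGP1, rose with every exposure, from 513 ± 22.9 to 735 ± 26.5 and 801 ± 78.4 with La and 680.0 ± 28.4 and 699 ± 25.6 with Yb (SD, n = 3). Its log2 changes were 0.52, 0.64, 0.41 and 0.45 (SE 0.07 each, limma adjusted p between 7.33e-06 and 0.000673). ASI1, part of the inner nuclear membrane complex that keeps unprocessed Stp factors off DNA, rose from 601 ± 21.1 to 792 ± 80.4 and 797 ± 18.7 with Yb (limma adjusted p = 0.00170 and 0.000775). ASI2 of the same complex rose with both Yb doses and ASI3 at Yb EC10, by 0.35, 0.43 and 0.27 on the log2 scale. Their calls at Yb EC10 were each lost under 4 of 13 alternatives. DAL81, a co-activator of AGP1, fell by 0.22 at La EC10 (limma adjusted p = 0.0370), a call lost under 8 of 13 alternatives.

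Of 11 genes of peptide and glutathione use, 2 rose at La EC10, 1 rose and 1 fell at La EC50, 1 rose at Yb EC10, and 2 rose and 1 fell at Yb EC50, with list medians of 0.08, -0.02, 0.02 and -0.01. ECM38, the γ-glutamyl transpeptidase that degrades glutathione in the vacuole, rose with every exposure, from 187 ± 3.48 to 305 ± 40.5 and 319.9 ± 35.7 with La and 314 ± 66.7 and 422 ± 39.2 with Yb (SD, n = 3). Its log2 changes were 0.69, 0.76, 0.72 and 1.16 (SE 0.14 each, limma adjusted p between 7.59e-06 and 0.00229), opposite in sign to those of the glutathione transporter gene OPT1. DUG1, a dipeptidase of the other glutathione route, rose at Yb EC50 from 1176 ± 88.2 to 1629.5 ± 106 (limma adjusted p = 0.000256). It was also called at La EC10 (adjusted p = 0.0448), where 7 of 13 alternatives lost it, as 8 of 13 lost the fall of the glutathione synthesis gene GSH1 at La EC50 (adjusted p = 0.0391). CUP9, the repressor of PTR2, was called lower at Yb EC50, at 363 ± 58.9 against 450.2 ± 43.0 in control (limma adjusted p = 0.0191), and not called at La EC10, La EC50 or Yb EC10. The call was ended by 5 of 13 alternatives, namely an equal total for all libraries (limma adjusted p = 0.206) and leaving out control library 1 or 3 or Yb EC50 library 5 or 6. A link between CUP9 and the PTR2 levels was not tested.

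Of the 4 regulators of nitrogen catabolite repression tested, limma called 0 at La EC10, 0 at La EC50 and 0 at Yb EC10, where 0, 0 and 1 had an unadjusted p under 0.05 and edgeR and DESeq2 also called 0. GZF3 and URE2, the most abundant, had log2 changes between -0.17 and 0.06 there. GZF3 stayed uncalled at Yb EC10 under 12 of 13 alternatives, but without library 8 its limma adjusted p was 0.0166. At Yb EC50 the activator gene GAT1 rose from 143 ± 10.3 to 182 ± 12.3, the repressor gene GZF3 fell from 359.9 ± 15.7 to 293 ± 19.8, and URE2, which holds Gln3 in the cytoplasm, rose from 817 ± 13.6 to 936 ± 10.3 (limma adjusted p = 0.0250, 0.0141 and 0.0438). The first 2 calls were each lost under 3 of 13 alternatives and the last under 8.

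Of 12 targets of nitrogen catabolite repression tested, 3 rose at La EC10, 1 rose and 1 fell at La EC50, 5 rose and 1 fell at Yb EC10, and 5 rose and 2 fell at Yb EC50. The list medians were 0.14, 0.05, 0.24 and 0.29. The urea amidolyase gene DUR1,2 had 339.8 ± 11.96 normalized counts in control, 403 ± 12.1 and 309.7 ± 24.8 with La and 498 ± 102 and 771 ± 78.1 with Yb (SD, n = 3), and it rose with both Yb doses (limma adjusted p = 0.00282 and 1.07e-06). DAL3 of allantoin breakdown rose in all 4 comparisons, from 21.1 ± 5.99 to between 41.2 and 48.6, and its calls with La (limma adjusted p = 0.0259 and 0.0245) were lost under 4 and 5 of 13 alternatives. The vacuolar carboxypeptidase gene CPS1 rose with both Yb doses by 0.56 and 0.55 on the log2 scale, and the GABA transaminase gene UGA1 rose by 0.55 at Yb EC50. The arginine catabolism genes went down where they were called: CAR2 fell by 0.50 at La EC50 and CAR1 fell by 0.45 at Yb EC10 (limma adjusted p = 0.0123 and 0.0117), each lost under 2 of 13 alternatives. CAR1 and CAR2 were also called lower at Yb EC50. The urea permease gene DUR3 was called higher at La EC10 (log2 change 0.43, limma adjusted p = 0.0293), a call lost under 6 of 13, as was UGA1 there under 8. DUR3 and UGA1 were also called higher at Yb EC10.

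Of 8 genes of ammonium assimilation and export, 1 rose and 1 fell at La EC10, 2 rose and 1 fell at La EC50, 3 rose and 1 fell at Yb EC10, and 5 rose and 1 fell at Yb EC50, with list medians of 0.00, 0.04, 0.29 and 0.59. GLN1, glutamine synthetase, rose with every exposure, from 2835 ± 273 to 4696 ± 752 and 4724 ± 523 with La and 3762 ± 188 and 5723 ± 234 with Yb (SD, n = 3, limma adjusted p between 2.28e-06 and 0.00917). ATO2, of a family linked to ammonium export, rose with Yb from 11.7 ± 1.54 to 33.9 ± 3.40 and 58.4 ± 5.59 (limma adjusted p = 0.000855 and 8.31e-06) and had 12.1 ± 4.09 and 15.3 ± 3.97 with La. GDH1, the glutamate dehydrogenase that fixes ammonium, rose with Yb from 1755 ± 157 to 2183 ± 80.0 and 2677 ± 177 (limma adjusted p = 0.00388 and 7.71e-06). At La EC50 it fell to 1460.2 ± 58.6 (adjusted p = 0.0137), a call that 3 of 13 alternatives ended, namely an equal total for all libraries (adjusted p = 0.124) and leaving out control library 3 or La EC50 library 10. GDH2, the glutamate dehydrogenase that releases ammonium, rose by 0.23 at La EC50, and ATO3 fell by 0.38 at La EC10 (limma adjusted p = 0.00959 and 0.0107). At Yb EC50 GDH2 was also called higher and ATO3 lower. GLT1 fell by 0.18 at Yb EC10 and GDH3 rose by 0.58 at Yb EC50 (adjusted p = 0.0391 and 0.0261), lost under 6 and 4 of 13 alternatives.

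Of 16 genes of permease trafficking, 1 rose at La EC10, 1 rose at La EC50, 2 rose at Yb EC10, and 4 rose and 1 fell at Yb EC50, with list medians of 0.03, 0.07, 0.05 and 0.09. PAR32, a protein that inhibits Mep1 and Mep3, rose with Yb from 545 ± 8.36 to 689 ± 47.9 and 763 ± 24.4 (limma adjusted p = 0.000779 and 1.23e-05). The arrestin-like adaptor genes ECM21 and ALY2 rose at Yb EC50 by 0.65 and 0.37 on the log2 scale, and ECM21 by 0.36 at Yb EC10, a call lost under 5 of 13 alternatives. SHR3, the chaperone that packs amino acid permeases for export from the endoplasmic reticulum, was called lower at Yb EC50, at 2559.6 ± 163 against 3588 ± 430.0 (limma adjusted p = 0.0214), with 5 of 13 alternatives losing the call. With La, DOA4, a deubiquitinase of endosomes, rose at EC10 from 289 ± 24.3 to 385 ± 17.8, and LST7, needed to deliver Gap1 to the surface, rose at EC50 from 419 ± 58.9 to 620.2 ± 68.8 (limma adjusted p = 0.00851 and 0.00441). DOA4 was also called higher at Yb EC50.

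Of 12 vacuolar amino acid transporters tested, 1 rose at each La dose, 2 rose at Yb EC10, and 2 rose and 1 fell at Yb EC50, with list medians of 0.06, 0.09, 0.08 and 0.08. AVT1, which loads neutral amino acids into the vacuole, rose at La EC50 from 1024 ± 32.1 to 1271 ± 74.9 (limma adjusted p = 0.00718), and its call at La EC10 (adjusted p = 0.0470) was lost under 7 of 13 alternatives. RTC2 rose by 0.81 and 0.88 on the log2 scale with Yb and AVT6 by 0.42 and 0.44, and YPQ1 fell by 0.36 at Yb EC50 (limma adjusted p = 0.00201). Of these, RTC2 at Yb EC10 was lost under 4 alternatives and AVT6 under 5 at Yb EC10 and 2 at Yb EC50.

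Between the metals at EC10, 1 of the 90 list genes was higher with La (DUG3) and 4 were higher with Yb (ATO2, DIP5, PAR32 and GDH1). Of all genes, 5.89% were called. Without La EC10 library 13 or Yb EC10 library 7 these 5 became 3, and calls over all genes went from 328 to 225 and 266. At EC50, 12 were higher with La and 12 with Yb (22% of all genes), 15 in all without Yb EC50 library 4. The list genes higher with La at EC50 included 7 of the 18 amino acid permease genes, among them ALP1, MMP1, SAM3 and GNP1, where PUT4 was higher with Yb. Those higher with Yb included ATO2, GDH1 and DUR1,2. From EC10 to EC50, DIP5 and ATO3 were higher at La EC50 (1.78% of all genes called) and GLN1 and DUR1,2 were higher at Yb EC50 (1.1%). The step from EC10 to EC50 differed between the metals for 6 of the 90 genes (3.25% of all genes), those 4 with GDH1 and SHR3. Leaving out any 1 of the 6 La libraries left 0 of the list calls between the La doses. Over all genes those fits called 32 to 100, against 99 with all libraries. Between the Yb doses there were 10 list calls without library 7, 1 without library 9 and 0 without library 4, 5, 6 or 8. Calls over all genes went from 61 to 536 without library 7 and to 1 without library 9. They were 4 without library 4, 2 without library 6 and 0 without library 5 or 8. The 6 differences of the steps became 3 without library 4, 8, 14 or 15 and 1 without library 6 or 12. Over all genes they went from 181 to 34, 48, 80, 46, 17 and 16 in that order.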

How the data were processed

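RNA was measured in 15 libraries of yeast cells. The deposited table gives a signal for 6600 gene identifiers: gene counts scaled by the authors with a size factor for each library. A further 5 columns hold the authors' group means and were not used. Per the labels' protocols the libraries were strand-specific. Per the submitters' processing notes, the tools included DESeq2 1.14.1, HTSeq 0.6.1p1, TopHat2 2.1.1 and FastQC 0.67, and the build was R64. Their roles and whether counting used strand were not given in the sources used here. In the deposited values 100% were whole multiples of 1 read within a tolerance of 0.01 reads, so reads could be recovered.

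The RefSeq annotation of R64 held 5917 of the 6600 identifiers and also gave positions, coding lengths and upstream sequence. The 5567 genes whose mean reached 10 normalized counts were transformed to log2(normalized count + 1), a scale that understates changes of low genes, and were fitted in limma 3.58.1 (R 4.3.3) with a trend, 1 coefficient per group and all 15 libraries; p-values are 2-sided and Benjamini-Hochberg adjusted over all genes tested, called under 0.05. Because the table holds size-factor-scaled values and not raw counts, edgeR 4.0.16 and DESeq2 1.42.0 on recovered reads are alternatives; edgeR called 1152, 1437, 1603 and 2306 genes at La EC10, La EC50, Yb EC10 and Yb EC50 and limma 1131, 1425, 1629 and 2274. The fits were tested on simulated data. Replicate pairs differed by more than counting noise (chi-square over its degrees of freedom 2.92 to 27.1; r across genes 0.987 to 0.995), so each library counted once.

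The 8 permease genes and the 8 lists were chosen with earlier results of these data known. All 8 permease genes are named; of each list, up to 4 called genes with the largest change per comparison with control, or the 2 most abundant where none was called, and for each permease gene with a 2-fold span of group means the 3 genes most alike. Genes named for La against Yb or for the dose steps fall outside this rule and were named after their values were seen. Further calls against control of genes already named were also added outside it. Comparisons with control share the control libraries, so they are set side by side and not correlated. Other scalings, pseudocounts, filters, tools, 2-group fits and each library left out were tried.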

Additional observations from a re-analysis of the deposited data

Results flagged for a closer look

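MEP1 lay below control in every La library and above it in every Yb library, with log2 changes of -0.40 at La EC10, 0.79 at Yb EC10, -0.99 at La EC50 and 1.09 at Yb EC50. The difference between the metals was not tested, because MEP1 was chosen for its levels in these groups.

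The step from EC10 to EC50 differed between the metals for 6 of the 90 list genes, by a test of the difference itself in limma, against 3.25% of all genes tested. The values are the La step minus the Yb step on the log2 scale. DUR1,2 had -1.03 ± 0.16 (SE, limma adjusted p = 0.00773), GDH1 -0.56 ± 0.10 (limma adjusted p = 0.0150) and GLN1 -0.59 ± 0.15 (limma adjusted p = 0.0471). SHR3 had 0.92 ± 0.22 (limma adjusted p = 0.0433), ATO3 0.60 ± 0.13 (limma adjusted p = 0.0371) and DIP5 0.50 ± 0.10 (limma adjusted p = 0.0199). DUR1,2 was called under all 17 alternatives run, DIP5 and GDH1 under all but 2, ATO3 and SHR3 under all but 9 and GLN1 under all but 10.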

How the results depend on the processing

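No paired analysis was possible because the columns carry no replicate number of the labels. No called result reversed. Of the permease values, MEP2 in all 4 exposures and MEP3 at La EC10 and both Yb doses moved by over 1.5 times or changed sign. Others that moved by over 1.5 times were those of OPT2 at Yb EC10 (0.85 without control library 1), PTR2 at both Yb doses and MEP1 at Yb EC10 (quantile normalization) and MEP3 at La EC50 (equal totals), as given above. OPT2 is limited by 5 to 14 reads per control library. Of 90 list genes, the count at La EC50 was 28 with equal totals (16 in the main analysis). For La EC50 against La EC10 it was 5 with DESeq2 and 1 with quantile normalization, a gene lower at EC50 and not among the main calls (main 2). For Yb EC50 against Yb EC10 it was 5 with equal totals, 5 with quantile normalization, 7 with edgeR, 9 with DESeq2 and 0 with only those 2 groups fitted (main 2). For La EC10 against Yb EC10 it was 3 with only those 2 groups fitted (main 5). Calls over all genes moved too. They were 1611 at La EC50 (main 1425), and 169 and 96 between the La doses (main 99). Between the Yb doses they were 203, 142, 176, 308 and 0 in the order above (main 61). For La EC10 against Yb EC10 they were 142 (main 328). The cause was not tested. With each library left out in turn the list counts against control ranged from 6 to 21 and from 10 to 16 for La (EC10, then EC50). For Yb the list counts ranged from 15 to 34 and from 30 to 39. They ranged from 0 to 0 in limma between the La doses and 0 to 10 between the Yb doses, where 14 and 19 list genes had an unadjusted limma p under 0.05 with all libraries. They were 3 to 7 for La against Yb at EC10 and 15 to 22 for La against Yb at EC50, the lowest without Yb EC50 library 4. For the difference of the dose steps the alternatives were chosen after seeing the data. It gave 1 to 7 list genes with a library left out (main 6), and 5 higher and 3 lower with edgeR. Over all genes it gave 16 to 481 with a library left out (main 181) and 273 with edgeR.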
